A study of Mus musculus with 6 samples.

Results

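Chemokines are small secreted proteins that draw leukocytes along a concentration gradient, and chemokine receptors are the G protein-coupled receptors that sense them. The arrays held 76 probe sets that name exactly 1 chemokine or chemokine receptor gene, out of 34945 probe sets that name exactly 1 gene of any kind. They were taken by gene symbol: the CC and CXC ligands (Ccl and Cxcl followed by a number), their receptors (Ccr and Cxcr followed by a number), and the CX3C pair Cx3cl1 and Cx3cr1. These probe sets stand for 48 genes of 18193, namely 18 CC ligands, 14 CXC or CX3C ligands and 16 receptors. A further 4 probe sets that name a chemokine together with other genes were left out.

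RNA was measured with short oligonucleotide arrays in whole liver of female C57 mice, 3 arrays from wild-type animals and 3 from animals labelled SRC-2 null (SRC-2-/-), without SRC-2, the nuclear receptor coactivator encoded by Ncoa2. All animals, controls included, were ovariectomized at 6 weeks of age and killed 2 weeks later under Avertin anesthesia, and the livers were flash frozen. The labels describe neither the null allele nor whether an array holds 1 animal or a pool. Values are log2 expression made with robust multi-array average, which corrects background and puts all arrays on 1 distribution, so a difference of 1 is a 2-fold change.

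In liver, chemokines come from Kupffer cells (the resident macrophages), sinusoidal endothelial cells, stellate cells, hepatocytes and visiting lymphocytes. The CC and CXC families are named for the spacing of a pair of conserved cysteines. Some members are induced by inflammation or interferon, and others, such as Cxcl12 and Cxcl13, are made steadily and guide leukocytes to their places in tissue.

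The brightest Ncoa2 probe set read 7.74, 7.92 and 8.53 on the wild-type arrays and 5.60, 5.44 and 5.86 on the null arrays, so the labels and the targeted gene go together. Of 10 hepatocyte markers measured 9 read 10.9 to 14.5 and Ass1, by its brightest probe set, 6.33 to 6.64, and none was called (0 by limma). Array medians lay between 4.17 and 4.24. In the comparison of SRC-2 null with wild-type liver, 556 of 11894 genes (4.67%) were called, which here means a limma p under 0.05 after Benjamini-Hochberg adjustment, 184 higher (1.55%) and 372 lower (3.13%). With the replicate number as a block, 307 were higher (2.58%) and 525 lower (4.41%). Without 1 array, 65 to 101 were called higher whichever array but wild-type replicate 3 was left out, and 210 were called lower without wild-type replicate 2, 219 without null replicate 1 and 217 without null replicate 2. Replicate 3 of both genotypes stands apart from the others, so values within replicates 1 and 2 and within replicate 3 are given for the called members.

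Of the 76 chemokine and receptor probe sets, 33 had a mean over the 6 arrays of 4.21 or more, and 43 lay below. That value is the median of the means of every probe set measured, and probe sets below it are given only as a description. With the brightest probe set of each gene, 23 of the 48 genes reached 4.21 and were tested: 12 of 18 CC ligands, 9 of 14 CXC or CX3C ligands and 2 of 16 receptors. Just above the split lay Ccl17 (mean 4.33), the second probe set of Cxcl9 (4.45) and the second probe set of Ccl25 (4.60). Just below it lay Ccl2 (4.21 when rounded), Cx3cr1 (4.12) and Cxcl14 (4.07).

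Of the 23 genes tested, 6 were lower in SRC-2 null liver, and all 6 were ligands: Ccl5, Ccl6, Ccl8, Cxcl9, Cxcl13 and Cxcl12. None was higher (0 by limma, with or without an intensity trend), and at an unadjusted p under 0.05 there were 9 lower and 1 higher, where 1139 and 901 of the 11894 genes passed that unadjusted threshold. After adjustment, 3.13% of all genes tested were lower. The median log2 fold change of the 23 was -0.14, and that of all genes tested was 0.00. In 9 of the 23 genes every null value lay below every wild-type value, a pattern found in 12.5% of all genes tested, and the opposite pattern was found in 0 of the 23 and in 10.8% of all genes. Of the 6 called genes, 5 stayed called whichever array was left out, and Cxcl12 lost its call without any 1 of the 6. With replicates 1 and 2 only, 5 of the 6 stayed called, again without Cxcl12.

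**Figure D1:**
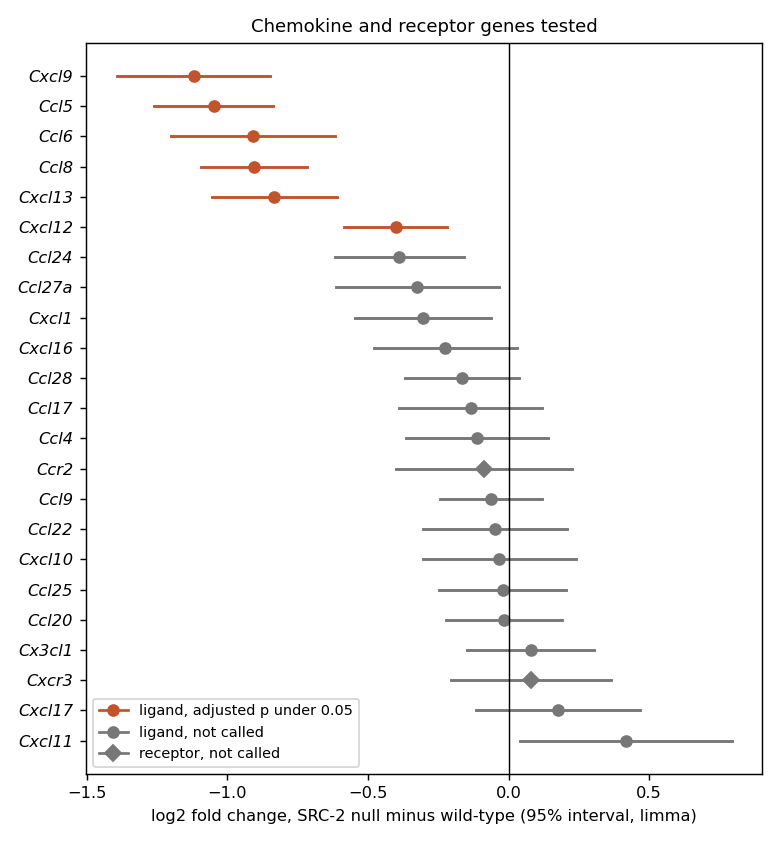
Log2 fold change of each of the 23 tested chemokine and receptor genes (horizontal axis, SRC-2 null minus wild-type, 3 arrays each), with lines for the 95% interval from limma. The 6 called ligands lie at the top between -1.12 and -0.40, and the remaining genes, both receptors among them, lie between -0.39 and 0.42.

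Among the CC ligands, Ccl5 attracts T cells, NK cells and monocytes. Ccl5 (probe set 1418126_at) read 6.42, 6.48 and 6.59 on the wild-type arrays and 5.51, 5.32 and 5.50 on the null arrays. The groups did not overlap, and the lowest wild-type value stood well above the highest null value. Ccl5 fell 2.07-fold (95% interval 1.79 to 2.40; log2 fold change -1.05, SE 0.09, limma adjusted p = 0.000464).

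Ccl6, a CC chemokine of rodents that attracts macrophages, read 7.35, 7.30 and 7.51 in wild-type and 6.22, 6.54 and 6.67 in null liver. The groups did not overlap, and null replicate 1 was the lowest value. Ccl6 fell 1.88-fold (95% interval 1.54 to 2.30; log2 fold change -0.91, SE 0.13, limma adjusted p = 0.00536).

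Ccl8, known in the mouse as a ligand of Ccr8, read 5.01, 5.10 and 5.08 in wild-type and 4.10, 4.13 and 4.24 in null liver. The 3 wild-type values lay close together, and the mean of the null arrays, 4.16, was below the filter value. Ccl8 therefore passed the filter through its wild-type level, and its fold can be understated. It fell 1.87-fold (95% interval 1.64 to 2.13; log2 fold change -0.90, SE 0.08, limma adjusted p = 0.000537), and its groups did not overlap. A tissue value cannot tell fewer cells of a type from less RNA per cell.

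The other 9 CC ligands tested were not called. Their log2 fold changes were all below 0 and ran from -0.39 to -0.02. Ccl24, an eosinophil attractant also called eotaxin-2, read 5.79, 6.05 and 5.80 in wild-type and 5.41, 5.58 and 5.49 in null liver, with no overlap. Its log2 fold change of -0.39 (SE 0.10) had a limma adjusted p of 0.0738, which became 0.0322 with the replicate number as a block. Under every other alternative Ccl24 was not called, at limma adjusted p values of 0.0518 to 0.261. Ccl27a, a ligand of Ccr10 best known in skin, had a log2 fold change of -0.32 (95% interval -0.62 to -0.03, limma adjusted p = 0.239), and its probe set belongs to a class that can detect related transcripts. Ccl28, an attractant of mucosal lymphocytes, had no overlap between groups but a difference of only -0.17 (95% interval -0.37 to 0.04).

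Ccl9, a ligand of Ccr1, was bright and nearly level, at 9.53, 9.55 and 9.64 in wild-type and 9.53, 9.47 and 9.54 in null liver. Its log2 fold change was -0.06 with a 95% interval of -0.24 to 0.12, and its second probe set gave -0.06 as well. The Ccr4 ligands Ccl17 and Ccl22 had log2 fold changes of -0.14 (95% interval -0.39 to 0.12) and -0.05 (-0.30 to 0.21). Ccl4, an inflammatory chemokine of macrophages and lymphocytes, had a log2 fold change of -0.11 (95% interval -0.37 to 0.14). Ccl25, which guides gut lymphocytes through Ccr9, and Ccl20, the ligand of Ccr6, both had log2 fold changes of -0.02, with intervals of -0.25 to 0.20 and -0.22 to 0.19.

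Among the CXC ligands, Cxcl9 is induced by interferon-gamma and attracts activated T and NK cells through Cxcr3. Cxcl9 (probe set 1418652_at) read 7.08, 7.25 and 7.43 in wild-type and 6.12, 5.99 and 6.29 in null liver. The groups did not overlap. Cxcl9 fell 2.17-fold (95% interval 1.80 to 2.63; log2 fold change -1.12, SE 0.12, limma adjusted p = 0.00127).

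Cxcl13, the B cell attractant that acts through Cxcr5, was measured by a pair of probe sets. The brighter read 6.58, 6.45 and 6.51 in wild-type and 5.52, 5.78 and 5.74 in null liver, a 1.78-fold fall (95% interval 1.53 to 2.08; log2 fold change -0.83, SE 0.10, limma adjusted p = 0.00199). By the second probe set Cxcl13 read 6.24, 6.57 and 6.63 in wild-type and 4.83, 4.43 and 4.71 in null liver, a log2 fold change of -1.82, and was called when probe sets were tested singly (limma adjusted p = 0.000911). Neither probe set showed overlap between the groups, and both were the same way round on all 6 arrays, but the sizes they gave differed.

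Cxcl12, the ligand of Cxcr4 that holds blood-forming cells in bone marrow, showed a smaller difference. It read 9.84, 9.81 and 9.76 in wild-type and 9.41, 9.46 and 9.34 in null liver, without overlap, a 1.32-fold fall (log2 fold change -0.40, SE 0.08, 95% interval -0.58 to -0.22, limma adjusted p = 0.0274). Within each group the values lay close together. The call was lost without any 1 array, at adjusted p values of 0.0507 to 0.12, and with the mean of all its probe sets, at 0.246.

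**Figure D2:**
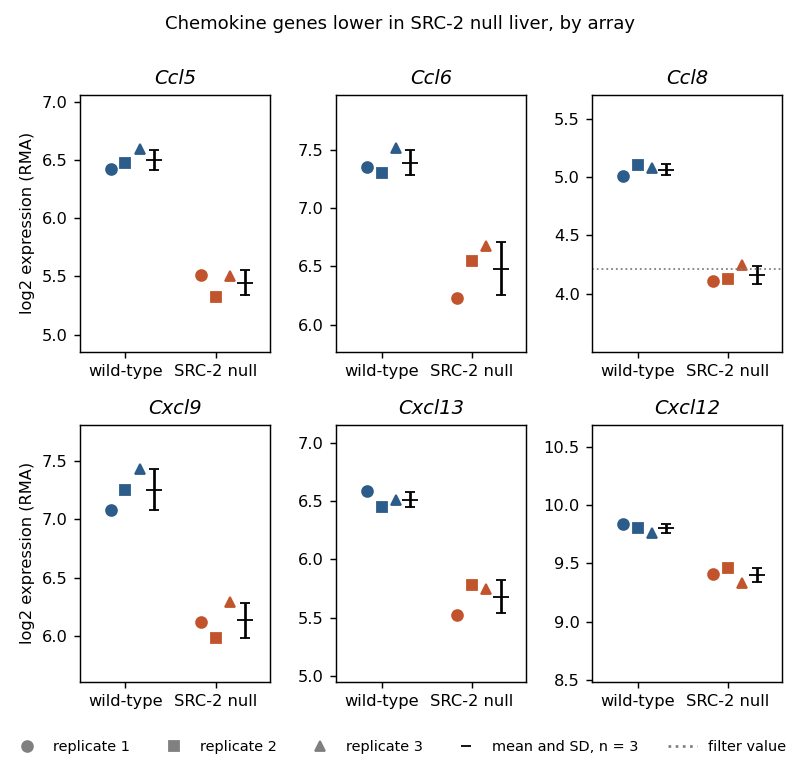
Log2 expression of the 6 called chemokine genes on each array (vertical axis, each panel spans the same range of log2 units), with marker shapes for the replicate number and bars for the mean and SD of 3 arrays. In each panel the 3 SRC-2 null values lie below the 3 wild-type values, by most in Cxcl9 and Ccl5 and by least in Cxcl12, and the null values of Ccl8 straddle the dotted filter value.

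The 6 genes were lower in null liver both within replicates 1 and 2 and within replicate 3. Within replicates 1 and 2 the log2 differences were -1.03 for Ccl5, -0.94 for Ccl6, -0.94 for Ccl8, -1.11 for Cxcl9, -0.87 for Cxcl13 and -0.39 for Cxcl12. Within replicate 3, a single pair of arrays, they were -1.09 for Ccl5, -0.84 for Ccl6, -0.84 for Ccl8, -1.14 for Cxcl9, -0.76 for Cxcl13 and -0.43 for Cxcl12.

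The other 6 CXC or CX3C ligands tested were not called. Cxcl1, a neutrophil attractant that acts through Cxcr2, had a log2 fold change of -0.30 by its brightest probe set (SE 0.11, limma adjusted p = 0.184). Cxcl16, the membrane-anchored ligand of Cxcr6 that guides NKT cells in liver sinusoids, had a log2 fold change of -0.23 (95% interval -0.48 to 0.03). The second Cxcl16 probe set, 1449195_s_at, gave -0.50 without overlap between groups. It was not called when probe sets were tested singly (limma adjusted p = 0.263). Cx3cl1, or fractalkine, and Cxcl17, a mucosal chemokine, had log2 fold changes of 0.08 (95% interval -0.15 to 0.30) and 0.18 (-0.12 to 0.47).

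Cxcl9, Cxcl10 and Cxcl11 are ligands of the same receptor, Cxcr3, and lie together on chromosome 5 with Art3 between Cxcl9 and Cxcl10 in the RefSeq order for GRCm38.p6. Cxcl10 read 5.04, 5.24 and 5.44 in wild-type and 5.33, 5.20 and 5.09 in null liver, a log2 fold change of -0.03 (95% interval -0.31 to 0.24). Cxcl11, which the RefSeq table for this mouse strain lists as a transcribed pseudogene, read 4.36, 4.69 and 5.06 in wild-type and 5.17, 4.99 and 5.19 in null liver, a log2 fold change of 0.42 (95% interval 0.04 to 0.79, limma adjusted p = 0.242). Of these 3 neighbours Cxcl9 alone was called, and Cxcl10 and Cxcl11 overlapped between the groups. Without wild-type replicate 3, its highest wild-type array, Cxcl11 was called higher at an adjusted p of 0.0478. The other Cxcl11 probe set, 1419698_at, lay below the split. It read 2.60 to 2.76 over the 6 arrays, with a difference of -0.05, so the rise rests on a single probe set.

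The Cxcl9 change was set against those of its neighbours, a comparison chosen after the values were seen. The log2 change of Cxcl9 minus that of Cxcl10 was -1.09 (SE 0.14, n = 3 arrays per group), and minus that of Cxcl11 it was -1.54 (SE 0.11). For both, the exact permutation test over the 20 relabellings of arrays gave a two-sided p of 0.1, the smallest that 3 arrays against 3 can give. The pairs were chosen because their values parted, so this p was likely from the start and adds no support. Only the brightest probe sets entered, and the second Cxcl9 probe set had a smaller log2 fold change, -0.35.

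A second neighbouring group on chromosome 11 also parted. The order there is Ccl5, Ccl9, Ccl6, Ccl3 and Ccl4. Ccl5 and Ccl6 were called lower, whereas Ccl9, which lies between them, and Ccl4 were not called, and Ccl3 lay below the split with a difference of -0.09. The Ccl6 change minus the Ccl9 change was -0.85 (SE 0.14), with an exact two-sided permutation p of 0.1, again the smallest possible. This pair too was chosen because its values parted, so the p adds no support. The second Ccl6 probe set, not used here, had a log2 fold change of -0.60. In the other chromosome 11 group, Ccl2, Ccl7, Ccl11, Ccl12, Ccl8 and Ccl1, Ccl8 alone reached the filter. The chromosome 8 neighbours Ccl22, Cx3cl1 and Ccl17 were all tested and did not part. None was called, and their log2 fold changes were -0.05, 0.08 and -0.14.

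**Figure D3:**
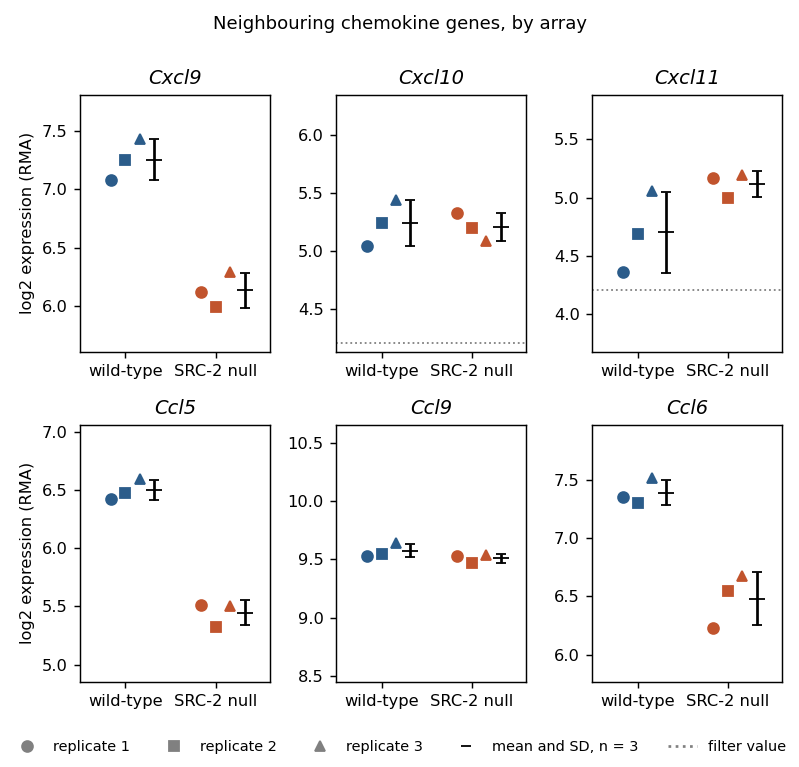
Log2 expression by array (vertical axis, the same span in each panel) of neighbouring chemokine genes, with Cxcl9, Cxcl10 and Cxcl11 from chromosome 5 above and Ccl5, Ccl9 and Ccl6 from chromosome 11 below, in chromosomal order. Null values lie below all wild-type values in Cxcl9, Ccl5 and Ccl6, and the groups overlap in Cxcl10, Cxcl11 and Ccl9.

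Promoter sequences are shown for the neighbours that parted, Cxcl9 with Cxcl10 and Ccl6 with Ccl9, and for the called genes Ccl8 and Cxcl13. Each is the 250 bases before the RefSeq start, 5′ to 3′ on the gene's strand, from GRCm38.p6. Capitals mark letters matching 1 of 3 patterns on either strand. The kappa B pattern, for the NF-kappa B factors, is GGG, any 3 bases, T, any base and CC. The interferon-stimulated response element pattern is GAAA, any 2 bases and GAAA, and the TATA box pattern is TATAAA. Adjoining or overlapping matches run together.
Cxcl9, chr5:92328080-92328329, minus strand: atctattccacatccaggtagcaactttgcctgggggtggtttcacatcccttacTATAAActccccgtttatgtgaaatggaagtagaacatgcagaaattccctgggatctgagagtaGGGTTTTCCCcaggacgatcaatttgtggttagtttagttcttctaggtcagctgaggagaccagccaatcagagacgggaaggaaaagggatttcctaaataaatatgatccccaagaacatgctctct
Cxcl10, chr5:92348890-92349139, minus strand: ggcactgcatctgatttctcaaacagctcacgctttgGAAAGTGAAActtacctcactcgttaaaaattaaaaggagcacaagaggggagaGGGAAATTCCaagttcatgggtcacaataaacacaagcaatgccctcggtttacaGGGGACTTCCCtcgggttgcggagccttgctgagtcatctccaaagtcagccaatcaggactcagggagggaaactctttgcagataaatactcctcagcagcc
Ccl6, chr11:83593088-83593337, minus strand: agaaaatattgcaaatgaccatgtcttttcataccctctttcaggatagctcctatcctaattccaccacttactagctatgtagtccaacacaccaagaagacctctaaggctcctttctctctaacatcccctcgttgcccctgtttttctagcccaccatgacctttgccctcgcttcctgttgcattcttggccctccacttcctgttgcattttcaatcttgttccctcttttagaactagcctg
Ccl9, chr11:83578637-83578886, minus strand: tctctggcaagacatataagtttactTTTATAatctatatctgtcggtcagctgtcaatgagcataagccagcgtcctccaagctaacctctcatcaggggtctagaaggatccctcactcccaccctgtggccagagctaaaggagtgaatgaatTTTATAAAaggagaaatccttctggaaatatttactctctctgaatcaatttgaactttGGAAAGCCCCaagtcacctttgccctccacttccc
Ccl8, chr11:82114935-82115184, plus strand: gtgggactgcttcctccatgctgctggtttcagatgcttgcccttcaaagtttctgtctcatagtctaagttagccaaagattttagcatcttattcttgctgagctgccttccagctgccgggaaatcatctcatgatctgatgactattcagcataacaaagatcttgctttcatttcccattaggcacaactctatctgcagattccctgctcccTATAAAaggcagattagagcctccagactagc
Cxcl13, chr5:95956689-95956938, plus strand: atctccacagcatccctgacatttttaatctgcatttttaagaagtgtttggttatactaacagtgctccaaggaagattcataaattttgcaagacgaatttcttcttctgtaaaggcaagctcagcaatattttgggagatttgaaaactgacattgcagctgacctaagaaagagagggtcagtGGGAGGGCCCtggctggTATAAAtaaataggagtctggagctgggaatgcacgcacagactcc

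The Cxcl9 promoter held the kappa B match GGGTTTTCCC from 130 to 121 bases before the start and a TATAAA match far upstream, from 195 to 190. The Cxcl10 promoter held kappa B matches from 159 to 150 and from 104 to 94 and the response element match GAAAGTGAAA from 213 to 204. The Ccl6 window held no match to any of the 3 patterns. The Ccl9 window held a kappa B match from 35 to 26 and TATAAA matches on both strands, while Ccl8 and Cxcl13 each had a TATAAA match, 32 to 27 and 46 to 41 bases before the start. A match is a description of letters and not a binding site.

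Promoters of 35 of the 48 genes were in the RefSeq table, 39 in all. The kappa B pattern was in 12 of these 39 (30.8%) and in 14.9% of 32851 promoters of any gene. TATAAA was in 11 of the 39 (28.2%) against 12.4% of all promoters, and the response element pattern in 2 (5.13%) against 2.98%. Of the 5 promoters of genes called lower, 2 held a kappa B match (Cxcl9 and Cxcl13), as did 5 of the 15 promoters of genes tested and not called. Ccl5, also called lower, was not among the 35 genes with a promoter.

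When the 33 probe sets at or above 4.21 were tested singly, 7 from 6 genes were lower and none was higher (0 by limma). Of all 19623 probe sets, 1.79% were lower and 0.617% higher. Cxcl1 joined the called genes and Cxcl12 left them. Cxcl1 had 3 probe sets. The one called, 1419209_at, read 6.20, 6.34 and 6.72 in wild-type and 5.45, 5.60 and 5.65 in null liver, a log2 fold change of -0.86 (limma adjusted p = 0.0259). The brightest, 1441855_x_at, gave -0.30, and 1457644_s_at gave -0.37 with groups that overlapped. Names ending in _x_at or _s_at mark probe sets that can detect related transcripts.

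Of the 8 genes with several probe sets at or above 4.21, all were called for Cxcl13, some for Ccl6, Cxcl1 and Cxcl9, and none for Ccl25, Ccl9, Cxcl12 and Cxcl16. The second Ccl6 probe set gave -0.60 (limma adjusted p = 0.0923) and the second Cxcl9 probe set -0.35 (limma adjusted p = 0.125), both without overlap between groups. With the mean of a gene's probe sets in place of the brightest, the log2 fold change was -0.74 for Cxcl9 and -1.33 for Cxcl13, and both stayed called. The 3 Cxcl12 probe sets differed in direction, with log2 fold changes of -0.40, -0.29 and 0.11. The last of these was far dimmer than the other Cxcl12 probe sets, at 4.68 to 5.25 against 9.34 to 9.84. Among the genes with 1 probe set above the split, Ccr2 read 4.85 to 5.37 by that probe set, while its other 3 probe sets read 2.60 to 3.50.

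**Figure D4:**
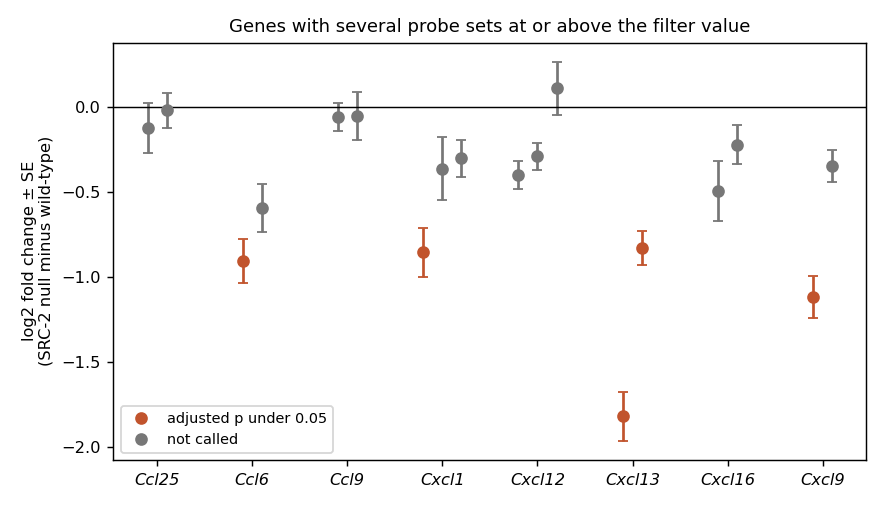
Log2 fold change (vertical axis, SRC-2 null minus wild-type, bars for the SE from limma) of every probe set at or above the filter value, for the 8 genes with several. Both Cxcl13 probe sets and 1 probe set each of Ccl6, Cxcl1 and Cxcl9 were called, and the 3 Cxcl12 probe sets lie on both sides of 0.

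Receptors were dim. Of 26 receptor probe sets, 24 lay below 4.21, and the 2 receptor genes tested did not differ detectably. Cxcr3, the receptor of Cxcl9 on T and NK cells, read 4.79, 4.84 and 4.98 in wild-type and 5.08, 5.09 and 4.69 in null liver (log2 fold change 0.08, 95% interval -0.20 to 0.36). Ccr2, the monocyte receptor of Ccl2, had a log2 fold change of -0.09 (95% interval -0.40 to 0.23). With 3 arrays per group, neither interval shows that the receptor was level.

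Below the split, the 43 probe sets came from 29 genes, 25 of which had none above it. Their means ran from 2.25 to 4.21, and the differences between the group means ran from -0.66 to 0.38 with a median of 0.03. Groups did not overlap in 4 with the null arrays lower and 1 with the null arrays higher, where 4.74% and 5.93% of all single-gene probe sets below the split did so. These were Cxcr4, Ccr8, 1 probe set of Ccl28 and 1 of Cx3cl1, lower, and Cxcl2, higher. They were named after their values were seen. Among the inflammatory ligands in this range were Ccl2, Ccl3, Ccl7, Ccl11, Ccl12, Cxcl2, Cxcl3 and Cxcl5. A dim probe set does not show that a gene is silent.

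Cxcr4, the receptor of Cxcl12 on many leukocytes, read 3.84, 3.57 and 3.98 in wild-type and 3.08, 3.26 and 3.07 in null liver. All of these lie below 4.21. When every gene was tested without the filter, it was the only 1 of the 25 added genes called, and it was lower (log2 fold change -0.66, SE 0.12, limma adjusted p = 0.0213), where 1.91% of all genes were lower and 0.824% higher without the filter. Cxcr5, the receptor of Cxcl13, and Cxcr6, the receptor of Cxcl16, also lay below the split, with differences of -0.20 and of -0.18 by the brighter probe set. Their groups overlapped.

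Few other genes of the chemokine system were called. Of 9 further chemokines, atypical receptors and related genes tested, 0 were called by limma, and 2 had an unadjusted p under 0.05: Ackr2, a scavenger receptor of CC chemokines, at 0.36, and Cklf, a chemokine-like factor, at -0.23. Cklf, at a mean of 4.40 in wild-type and 4.16 in null liver, passed the filter through its wild-type level. The replicate block called Ackr2 higher (adjusted p = 0.0367). Of 25 genes that carry the signal of chemokine receptors, Rac2, the Rac GTPase of blood cells, fell 1.46-fold (log2 fold change -0.55, SE 0.11, limma adjusted p = 0.0341), and 24 were not called, a count of lower calls near the 3.13% of all genes. The Rac2 call was lost when probe sets were tested singly (adjusted p = 0.0692), and with the mean of its probe sets the log2 fold change was -0.36. Rac2 kept its call when wild-type replicate 1 was left out and lost it when any other array was, at adjusted p values of 0.076 to 0.13. The G protein subunit genes Gnai2, Gnai3, Gnb1 and Gnb2 had log2 fold changes of -0.07, -0.08, -0.03 and -0.01. Prkcd and Prex1 were not called, though their groups did not overlap. Their log2 fold changes were -0.52 and -0.44 (limma adjusted p = 0.0554 and 0.0871). Prkcd was called lower with the stricter filter, with a variance trend, with replicate 3 blocked against 1 and 2 and without null replicate 3. Prex1 was called lower with that block and without wild-type replicate 2. Of the 25 genes, 16 had log2 fold changes below 0.

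Of 18 genes of signals that induce chemokines, 2 fell (11.1%, against 3.13% of all genes tested) and 16 were not called. Il1r1, the interleukin-1 receptor, read 8.43, 8.56 and 8.61 in wild-type and 7.33, 7.35 and 7.45 in null liver, a 2.23-fold fall by its brightest probe set (log2 fold change -1.16, SE 0.09, limma adjusted p = 0.000223). With the mean of its probe sets the log2 fold change was -0.44 (limma adjusted p = 0.0104). Irf7, an interferon-induced transcription factor, fell 1.54-fold (adjusted p = 0.00347). With the replicate block, Nfkbia and Il18 were called lower too, at log2 fold changes of -0.45 and -0.36. Nfkbia encodes the inhibitor of NF-kappa B, and Il18 a cytokine that induces interferon-gamma. With that block 5 genes of these 3 lists fell and 1 rose, in place of 3 and none. Nfkbia and Il18 were also called lower with replicate 3 blocked against 1 and 2, with a variance trend and with the mean of probe sets. Tested singly, other Nfkbia probe sets were called lower at -0.54 and -0.69 (limma adjusted p = 0.0328 and 0.00739). Neither gene was called with array medians centred, without the filter, with the stricter filter or with replicates 1 and 2 only. Tnf, Il1b and Rela had log2 fold changes of -0.12, -0.16 and -0.03.

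Many markers of macrophages and of B and plasma cells fell beside the called ligands, and few markers of other leukocytes did. Of 20 markers of macrophages and Kupffer cells 16 fell, with a median log2 fold change of -0.93, and their mean level was 7.48 to 7.56 on the wild-type and 6.60 to 6.63 on the null arrays. The scavenger receptor Marco fell 5.10-fold, Cd5l, a protein secreted by macrophages, 2.22-fold, and the complement subunit C1qb 2.21-fold. Mrc1, Msr1 and Siglec1 were not called, at log2 fold changes of -0.17, -0.20 and 0.03. The phosphatidylserine receptor Timd4, at a mean of 5.58 in wild-type and 4.18 in null liver, passed the filter through its wild-type level, as did the cytotoxic granule gene Nkg7, at 4.82 and 4.04. The uncalled markers Fcgr1 (4.95 and 4.04), Cd3d (4.49 and 4.09), Gzmb (4.45 and 4.19) and Cd79a (4.75 and 4.14) passed likewise. Siglech, of the dendritic cell list, passed through its null level (4.13 in wild-type and 4.30 in null liver). The list medians include such genes. Of 8 T and NK cell markers Nkg7 alone fell, with a median over the 8 of -0.32 and mean levels of 4.92 to 4.96 against 4.58 to 4.80. Of 6 B and plasma cell markers the immunoglobulin heavy chain Ighm, the joining chain Jchain and the plasma cell chaperone Mzb1, 3 in all, fell (median -0.996, mean levels 6.56 to 6.86 against 5.11 to 5.31). Of 7 dendritic cell markers, the class II genes Cd74 and H2-Ab1, which B cells and macrophages also make, fell 4.16-fold and 3.45-fold, and the median was -0.01. No neutrophil marker of 6 was called (0 by limma, median 0.05). Flt1 rose among 15 endothelial markers (median 0.01) and Rgs5 among 12 stellate cell and matrix markers (median -0.07). The Flt1 call was lost without any 1 array, at adjusted p values of 0.0567 to 0.171, and the Rgs5 call with the mean of its probe sets, at 0.149. The part of any of these cell types in the chemokine differences was not tested.

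**Figure D5:**
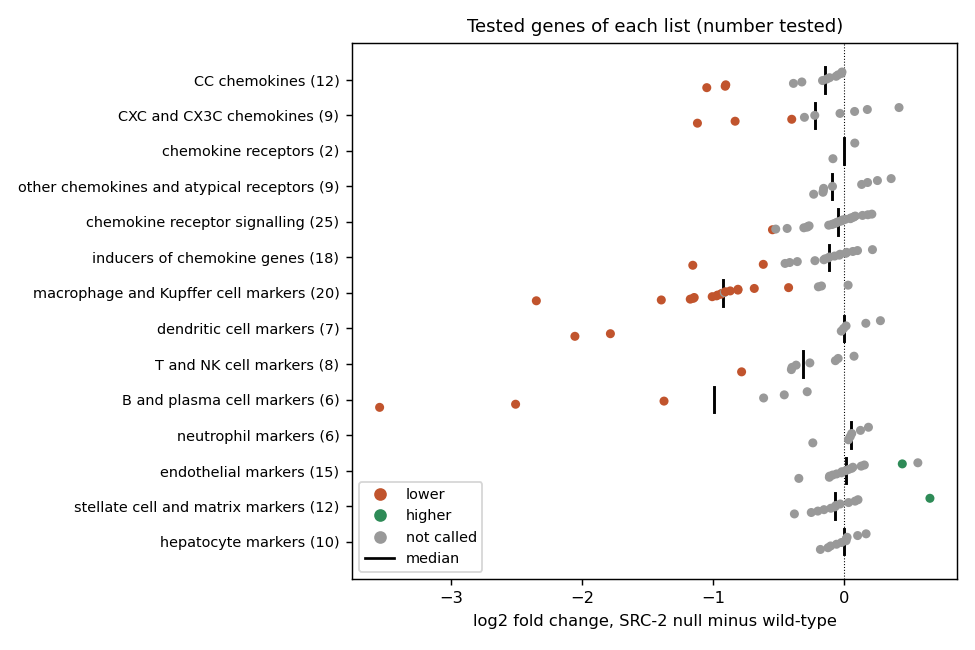
Log2 fold change (horizontal axis, SRC-2 null minus wild-type) of each tested gene in the chemokine lists, the related pathway lists and the cell type marker lists, with a black bar for the list's median. The macrophage and the B and plasma cell medians lie near -0.93 and -0.996, and the CC and the CXC and CX3C ligand medians at -0.15 and -0.23.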

How the data were processed

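The values are log2 expression that the authors deposited in a processed table, 1 column per array and 45101 probe sets, made with RMA per the submitters' processing notes. The sources used here name neither a version of RMA nor a genome build. Gene names came from the platform annotation of the arrays, where 34945 probe sets had 1 symbol, 932 several and 9160 none, and 64 were controls. By gene number 34741 of the 34945 matched the GRCm38.p6 RefSeq table and 0 needed a new symbol.

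For each gene the single-symbol probe set with the highest mean over the 6 arrays was kept, and genes with a mean at or above 4.21 were tested with limma 3.58.1 in R 4.3.3 (lmFit and eBayes, two-sided, genotype as the only term), with Benjamini-Hochberg adjustment over all 11894. The procedure was also run on simulated data with independent errors for each array. That run does not cover deviations that real arrays share. Figures used matplotlib 3.10.9. The labels do not say that replicates are separate animals, so p-values measure only how far these arrays spread, and that spread may be technical.

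Same-numbered arrays of both genotypes deviated together (correlations of deviations from the group means over genes 0.18, 0.203 and 0.516 for replicates 1, 2 and 3), as did wild-type replicate 1 with null replicate 2 (0.206) and the reverse (0.166), while replicate 3 of either genotype opposed replicates 1 and 2 of the other (-0.344 to -0.266). Within a genotype the deviations of each gene sum to 0, so the negative values follow on balance from the positive ones and are not separate evidence. The replicate numbers come from the sample titles, and the labels do not say that same-numbered arrays were paired. For replicates 1 and 2 the same-numbered correlations were like the crossed ones, so they do not single out a pairing by number. Replicate number, and replicate 3 against 1 and 2, were used as blocks in alternatives.

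The members and lists were chosen with earlier results of these data known. Named were every called member, the other tested members in order of p and the 3 probe sets on each side of the split. Up to 4 called genes of each list were named too. The remaining pathway and marker genes given by value, and the neighbour comparisons, were chosen after their values were seen. Alternatives were the filter, the probe set rule, centring, a variance trend, the replicate and batch blocks, each array left out, and, chosen after seeing the data, replicates 1 and 2 only. Protein sequences were not used here.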

Additional observations from a re-analysis of the deposited data

How the results depend on the processing

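The number of arrays limits every value, and how far folds of dim genes are understated was not measured. Ccl5, Ccl6, Cxcl9 and Cxcl13 kept their calls under every alternative run, and Ccl8 under all in which it was tested (the stricter filter of 5 left it out). Beside Cxcl12, no called member lost its call. Without the filter 7 members were lower (Cxcr4 was added), and 5 were lower with the stricter filter, with the mean of a gene's probe sets and without any 1 array. Members called higher numbered 0 to 1 without 1 array. The replicate block changed no other member's call than that of Ccl24. All genes called higher numbered 121 by probe set, 307 with the replicate block, 375 with the batch block (replicate 3 against 1 and 2), 65 to 174 without 1 array and 95 with replicates 1 and 2 only. All genes called lower numbered 607 with the batch block, 210 to 315 without 1 array and 234 with replicates 1 and 2 only. In the 3 pathway lists, genes called lower numbered 5 with the mean of probe sets, 6 with a variance trend, 5 with the replicate block, 7 with the batch block and 2 to 4 without 1 array, and genes called higher numbered 1 with the replicate block and 0 without any 1 array. The cause of these shifts was not tested.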
